A study of Mus musculus with 6 samples.

Results

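Early postnatal white matter holds a population of amoeboid, phagocytic microglia that express a characteristic set of genes, and 10 such genes were followed here in RNA from OPC preparations of DISC1-Δ3 and wildtype mice. The genes were Gpnmb, Spp1, Igf1, Lgals3, Apoe, Lpl, Fabp5, Axl, Clec7a and Cst7. They were taken by gene symbol from a table of 18211 genes, and each symbol was found on 1 row. All 10 passed the filter on low values, which kept 13792 genes for testing.

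Microglia are the resident macrophages of the brain. Around birth, those in developing white matter engulf dying cells and newly formed oligodendrocytes and pass through a state in which secreted factors, lipid-handling proteins and engulfment receptors are raised, a state that resembles the one microglia take around amyloid plaques and demyelinated lesions in later life. None of the 10 genes is exclusive to microglia: Apoe and Fabp5 are also made by astrocytes and OPCs, Spp1 and Gpnmb by other macrophages, and Igf1 by neurons.

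The libraries came from C57BL/6 mice at postnatal day 7. Wildtype mice (n = 3 libraries) carried no CreERT transgene, and DISC1-Δ3 mice (n = 3 libraries) had the genotype NG2-CreERTM: DISC1 exon3 fl/+, in which a tamoxifen-dependent Cre driven by the NG2 (Cspg4) promoter removes exon 3 from 1 of the Disc1 alleles. Both groups received tamoxifen by gavage on each of 4 days, from P4 to P7, so the presence of CreERT and the loss of exon 3 cannot be told apart. The NG2 promoter is also active in pericytes, so the driver alone does not limit the deletion to OPCs. By RT-qPCR of isolated cells, pericytes among them, the authors report raised DISC1-Δ3 mRNA only in OPCs. OPCs were isolated from the cerebral hemispheres by panning on PDGFRα antibody, and RNA was extracted at once. The labels do not say whether each library came from 1 mouse or from a pool, so the p-values below measure only the spread between these libraries.

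The libraries held 13716619 to 16417219 reads assigned to genes. DISC1-Δ3 replicate 3 stood apart from the others of its group: in a chi-square test of its counts against replicates 1 and 2 the statistic was 5.39 and 4.99 times its degrees of freedom, against 2.59 times between replicates 1 and 2 and 1.80 to 2.97 times among the wildtype libraries. Disc1 itself was at 3.55 ± 0.238 RPKM (mean ± SD, n = 3 here and throughout) in wildtype and 2.72 ± 0.240 in DISC1-Δ3 libraries (log2 fold change -0.45, edgeR adjusted p = 0.000528), a gene-level value that does not resolve exon 3.

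The preparations were labelled as OPCs, and markers of OPCs were present in every library, but as a list the markers of microglia and of myeloid cells in general had far higher median levels. RPKM, which counts reads per kilobase of transcript and relative to the size of the library, allows levels to be set side by side between genes. In wildtype libraries the microglial gene Csf1r reached 1865 ± 20.8 RPKM and the complement gene C1qa 3312 ± 128, while the OPC receptor Pdgfra was at 17.5 ± 0.503. Single markers varied widely within a list: in wildtype libraries the OPC marker Olig1 was at 251.5 RPKM and the pan-myeloid marker Ptprc at 11.9. The median level of 12 pan-myeloid markers was 809 RPKM in wildtype and 639 in DISC1-Δ3 libraries, and that of 10 OPC markers was 24.0 and 35.2. Medians above those of OPC markers were also seen for astrocyte markers (138.8 and 124.1) and myelinating oligodendrocyte markers (106.7 and 86.65).

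**Figure D1:**
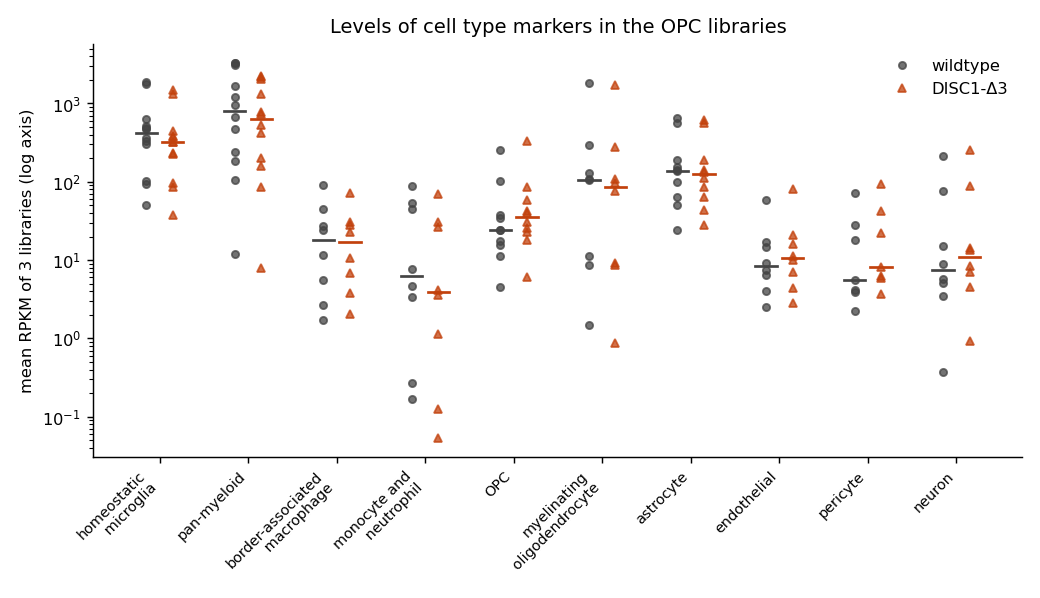
Mean RPKM of each cell type marker (log axis) in 3 wildtype libraries (grey circles) and 3 DISC1-Δ3 libraries (orange triangles), by cell type, with a bar at the median of each list. The medians of the homeostatic microglia and pan-myeloid markers sit above the OPC median in both groups, although single markers overlap, and both are lower in DISC1-Δ3 libraries, whereas the OPC median is higher. The medians of the astrocyte and myelinating oligodendrocyte markers also sit above the OPC median in both groups.

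Myeloid and OPC markers moved in opposite directions between the groups. All 12 pan-myeloid markers and 11 of 12 homeostatic microglia markers were lower in DISC1-Δ3 libraries, with median log2 fold changes of -0.42 and -0.49, and the summed RPKM of the pan-myeloid list was 15010 to 15360 in wildtype libraries and 10490 to 10950 in DISC1-Δ3 libraries. Of 10 OPC markers 8 were higher and 1 was lower (median 0.40), and their summed RPKM was 514 to 533 in wildtype against 644 to 668 in DISC1-Δ3 libraries. Among the other lists, 5 of 6 tested monocyte and neutrophil markers, 4 of 8 border-associated macrophage markers and 5 of 8 myelinating oligodendrocyte markers were called lower and none higher, 6 of 10 astrocyte markers were lower and 2 higher, and 4 of 8 endothelial, 6 of 7 pericyte and 6 of 8 neuron markers were higher and none lower. The border-associated macrophage list was split: the other 4 of its log2 fold changes were above 0 without passing the test, and its median was -0.03. Over all tested genes 39.9% were called with the same threshold, 20.4% higher and 19.5% lower, the share to set beside these and later list counts. The part of the marker shifts in the results below was not tested. In bulk RNA, fewer cells of a type and less RNA per cell cannot be told apart.

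Against this background, the 10 genes did not move together. Gpnmb and Spp1 were several times higher in DISC1-Δ3 libraries, Igf1 was slightly higher, Axl, Cst7 and Apoe were lower, and Fabp5, Lgals3, Lpl and Clec7a did not pass the test. With edgeR's quasi-likelihood test and an adjusted p under 0.05, 6 of the 10 were called, 3 higher and 3 lower. Over all 13792 tested genes 39.9% were called, 20.4% higher and 19.5% lower, so that 6 of 10 is a count of a few genes above a high background. The share of calls that were higher was 51.1%, and 70.1% when libraries were scaled by summed RPKM, where 4 of the 10 genes were higher and 2 lower. Without DISC1-Δ3 replicate 3, 5 of the 10 were called, 3 higher and 2 lower, against 45.2% of all tested genes. The median log2 fold change of the 10 genes was 0.04, beside 0.0075 over all tested genes. RPKM of the groups did not overlap for 7 of the 10 genes, 4 higher and 3 lower, against 52.0% of all tested genes, 35.9% higher and 16.1% lower. The log2 fold changes carry edgeR's TMM scaling factors, 0.970 to 0.973 in wildtype and 1.021 to 1.041 in DISC1-Δ3 libraries, and RPKM does not. For the 10 genes, RPKM differences and percentages therefore lie to the higher side of the log2 fold changes beside them.

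**Figure D2:**
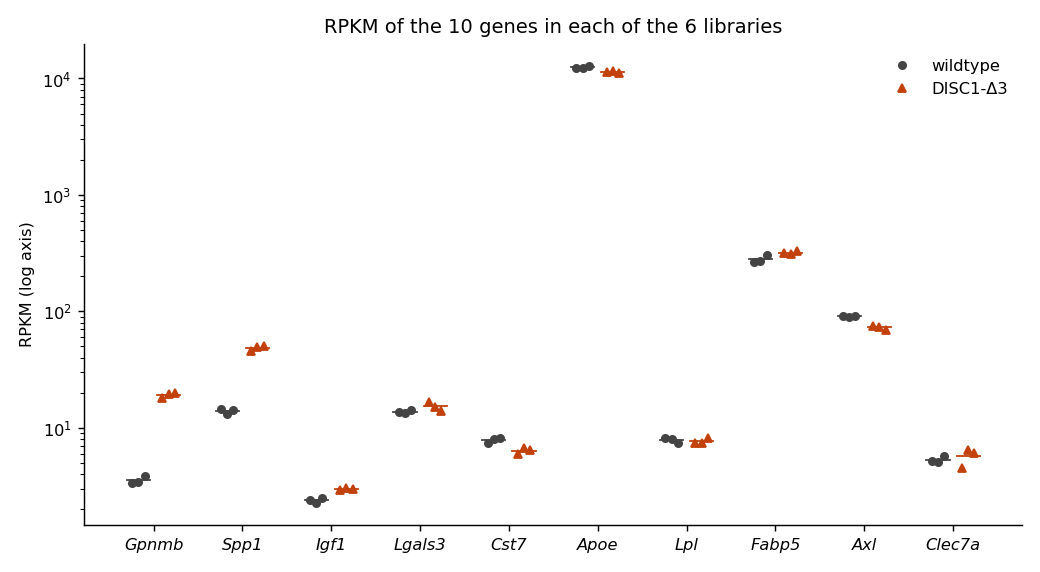
RPKM of the 10 genes (log axis) in each wildtype library (grey circles) and each DISC1-Δ3 library (orange triangles). Gpnmb and Spp1 are well separated between the groups, Clec7a, Lgals3 and Lpl overlap, and Apoe is the highest in every library.

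Among the secreted and membrane glycoproteins, Gpnmb differed the most. Gpnmb (gene ID 93695, chr6:49036518-49058182, mm10) encodes a transmembrane glycoprotein of lysosomes and melanosomes that macrophages raise when they take up lipid-rich debris. It was at 3.34, 3.41 and 3.87 RPKM in the wildtype libraries and at 18.12, 19.66 and 19.8 in the DISC1-Δ3 libraries. Each DISC1-Δ3 library was therefore well above every wildtype library, and the means differed 5.42-fold (3.54 ± 0.288 against 19.2 ± 0.932). The reads behind these values were 167 to 231 in wildtype and 943 to 1165 in DISC1-Δ3 libraries. Its log2 fold change was 2.35 ± 0.0780 (SE), with an edgeR adjusted p of 1.208e-13, and it ranked 119 of the 13792 tested genes by log2 fold change. For scale, 381 genes (2.76%) were called higher by a log2 of 1 or more.

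Spp1 (gene ID 20750, chr5:104435111-104441053) encodes osteopontin, a secreted phosphoprotein that binds integrins and CD44. Its wildtype libraries read 14.5, 13.26 and 14.32 RPKM, and its DISC1-Δ3 libraries 45.95, 49.63 and 50.68. Again the groups lay far apart, with means of 14.0 ± 0.670 and 48.8 ± 2.48, a 3.48-fold difference. The log2 fold change was 1.72 ± 0.0719 (edgeR adjusted p = 2.883e-12). Both genes kept their direction and their call in all 15 alternative analyses, with log2 fold changes of 2.15 to 2.44 for Gpnmb and 1.68 to 1.81 for Spp1. Without DISC1-Δ3 replicate 3 the values were 2.33 for Gpnmb and 1.70 for Spp1.

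The sequences just upstream of these genes are shown because Gpnmb and Spp1 carry the largest differences of the set. Each is the 250 bases before the annotated start, on the plus strand of GRCm38.p6 (RefSeq), chr6:49036268-49036517 for Gpnmb and chr5:104434861-104435110 for Spp1, and capitals mark the motif matches found there.
Gpnmb: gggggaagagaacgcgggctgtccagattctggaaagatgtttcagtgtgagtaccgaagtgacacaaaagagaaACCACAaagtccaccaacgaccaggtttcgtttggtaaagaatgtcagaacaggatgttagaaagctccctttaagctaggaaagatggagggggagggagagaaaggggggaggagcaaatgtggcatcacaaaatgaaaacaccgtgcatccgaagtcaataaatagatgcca
Spp1: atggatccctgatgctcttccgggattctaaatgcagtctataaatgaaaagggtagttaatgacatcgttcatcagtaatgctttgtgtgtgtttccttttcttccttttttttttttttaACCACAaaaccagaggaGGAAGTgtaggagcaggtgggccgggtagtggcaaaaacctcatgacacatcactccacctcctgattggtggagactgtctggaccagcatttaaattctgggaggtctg

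Both windows hold the RUNX core ACCACA, 175 bases before the start in Gpnmb and 128 in Spp1, and the Spp1 window also holds the ETS core GGAAGT bound by PU.1, 111 bases before the start. Over all 32851 windows of this length, 14.0% hold ACCACA and 19.7% hold GGAAGT on either strand. Neither window holds CTTTGA (TCF/LEF, in 13.8% of all windows), CACGTG (the E-box of the MiT/TFE factors, 6.02%) or TGANTCA (AP-1, 6.75%), where N is any base. Windows were given for 8 of the 10 genes, some with more than 1 start. Spp1 has a second window, chr5:104435942-104436191, which holds none of the 5 motifs. In the Cst7 window GGAAGT and ACCACA were found, in the Igf1 window TGANTCA and CTTTGA, and in the windows of Apoe, Axl, Clec7a and Lgals3 none of the 5 motifs. A match says only that the letters are there.

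The receptors of osteopontin did not rise with it as a group. Cd44 rose from 3.91 ± 0.141 to 5.91 ± 0.465 RPKM (log2 fold change 0.51, edgeR adjusted p = 0.000124). The integrin subunits Itgb5 (372 ± 3.09 to 263 ± 9.24 RPKM, -0.58) and Itga9 (-0.49) fell, while Itgav (-0.09) and Itgb3 (-0.20) did not pass the test. The galectins and their binding protein were on the same list of 11 genes, of which 1 was higher and 5 were lower (median -0.20). Lgals3bp, a secreted glycoprotein that galectin-3 binds, fell from 344 ± 7.14 to 228 ± 8.85 RPKM (-0.67), and Lgals9 fell by 0.46 on the log2 scale. Lgals3 (gene ID 16854, on chromosome 14), which encodes galectin-3, a lectin released by phagocytes, read 13.73, 13.41 and 14.17 RPKM in wildtype and 16.7, 15.17 and 13.93 in DISC1-Δ3 libraries. The lowest DISC1-Δ3 library, replicate 3, lay inside the wildtype range. Its log2 fold change of 0.07 had a 95% interval of -0.13 to 0.27 (edgeR adjusted p = 0.605).

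Of the MiT/TFE factors, the lysosomal transcription factors that include known regulators of Gpnmb, none was higher. Mitf (1.94 ± 0.246 to 1.38 ± 0.170 RPKM, log2 fold change -0.57) and Tfe3 (-0.26) fell, and Tfeb (-0.10) and Tfec (0.18) did not pass the test. The median of the 4 genes was -0.18.

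Igf1 (gene ID 16000, chr10:87858265-87937047) encodes insulin-like growth factor 1, a growth factor that white matter microglia supply to oligodendrocytes during primary myelination. It was the least abundant of the 10 genes in both groups, at 2.39, 2.26 and 2.5 RPKM in wildtype and 2.94, 3.03 and 2.99 in DISC1-Δ3 libraries. All 3 DISC1-Δ3 libraries were above all 3 wildtype libraries, by 25.3% on the means. The log2 fold change was 0.24 ± 0.0874 (edgeR adjusted p = 0.0354), and the call rests on the settings: with DESeq2 the adjusted p was 0.111, and it was lost in 7 of the 15 alternatives, among them the omission of wildtype replicate 1 or 2 or of DISC1-Δ3 replicate 1 or 2 (adjusted p of 0.0779, 0.139, 0.0798 and 0.134).

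In the IGF axis around it, 4 of 12 tested genes were higher and 3 lower (median -0.04), beside 39.9% of all tested genes called. Igf2r, the receptor that clears IGF2 and carries lysosomal enzymes, rose from 1.76 ± 0.157 to 3.85 ± 0.129 RPKM (log2 fold change 1.05, edgeR adjusted p = 2.003e-08). Igfbp7 (0.44) and Igfbp5 (0.24) also rose. The signalling receptors Insr (-0.38) and Igf1r (6.50 ± 0.131 to 6.12 ± 0.265 RPKM, -0.16, adjusted p = 0.0213) were called lower, as was Igfbp4 (-0.17), and Igf2 (0.16) was called higher, but these 4 calls depended on the settings. Insr lost its call with both limma fits (adjusted p of 0.0879 and 0.0904). Igfbp4 lost it in 3 of the 15 alternatives, with both limma fits and with scaling by summed RPKM (0.103). Igf1r lost it in the same 3 settings (0.293 with summed RPKM) and without wildtype replicate 1 or 2 or DISC1-Δ3 replicate 2 (edgeR adjusted p of 0.0712, 0.0580 and 0.0678). Igf2 lost it with DESeq2 (0.0501) and without any 1 library other than DISC1-Δ3 replicate 3 (0.0532 to 0.240), and its log2 fold change was 0.10 without DISC1-Δ3 replicate 2. Igfbp2, the most abundant binding protein at 322 ± 9.72 and 326 ± 3.52 RPKM, did not pass the test, nor did Igfbp3 (-0.15) and Igfbp6 (-0.29).

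Among the lipid genes, Apoe (gene ID 11816, chr7:19696244-19701310) encodes apolipoprotein E, the main lipid carrier secreted by glia. It had the highest RPKM of all genes in each of the 6 libraries. The wildtype libraries read 12334.71, 12398.08 and 12837.69 RPKM and the DISC1-Δ3 libraries 11305.79, 11561.01 and 11176.31. The groups did not overlap and the DISC1-Δ3 mean was lower by a small margin, with 11350 ± 196 against 12520 ± 274 and a log2 fold change of -0.22 ± 0.0435 (edgeR adjusted p = 0.00054). Apoe took 1.26 to 1.31% of the reads of a DISC1-Δ3 library and 1.38 to 1.45% of those of a wildtype library, and it was called lower in all 15 alternatives, with a smaller log2 fold change of -0.14 when libraries were scaled by summed RPKM.

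Lpl (gene ID 16956, on chromosome 8) encodes lipoprotein lipase, which frees fatty acids from lipoprotein triglycerides. At 8.15, 7.98 and 7.37 RPKM in wildtype and 7.46, 7.39 and 8.19 in DISC1-Δ3 libraries, its groups overlapped almost completely. Its log2 fold change was -0.11, with a 95% interval of -0.27 to 0.05 (edgeR adjusted p = 0.270). Fabp5 (gene ID 16592, on chromosome 3) encodes a fatty acid binding protein of the cytosol. It read 264.65, 272.73 and 303.08 RPKM in wildtype and 315.97, 308.97 and 327.05 in DISC1-Δ3 libraries. The ranges did not overlap, but the log2 fold change of 0.10 ± 0.0507 did not pass the test (95% interval -0.01 to 0.21, edgeR adjusted p = 0.130). It passed in 4 of the 15 alternatives, including scaling by summed RPKM (0.19, adjusted p = 0.00575).

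Of 20 other genes of lipid handling, 4 were higher and 6 lower, with a median of -0.07, beside 39.9% of all tested genes called. The cholesterol exporters Abca1 (28.1 ± 1.12 to 16.8 ± 1.60 RPKM, log2 fold change -0.82) and Abcg1 (-0.73), which load lipid onto ApoE, fell together with the apolipoprotein Apoc2 (-1.84), the hormone-sensitive lipase Lipe (-0.52) and the ApoE receptor Lrp1 (164 ± 10.1 to 138 ± 7.02 RPKM, -0.33). Angptl4, an inhibitor of lipoprotein lipase (0.29), and Fabp7 (0.23) rose. Fabp3 (0.34) and the ApoE receptor Vldlr (0.24) were also called higher, but lost the call in 10 and 7 of the 15 alternatives. With DESeq2 their adjusted p was 0.137 and 0.0685. Fabp3 lost it without any 1 library other than DISC1-Δ3 replicate 3 (edgeR adjusted p of 0.0597 to 0.209), and Vldlr without wildtype replicate 2 or 3 or DISC1-Δ3 replicate 2 or 3 (0.0684 to 0.0921). The ApoE receptor Lrp8 (0.07) and the endothelial anchor of lipoprotein lipase, Gpihbp1 (-0.54, at a mean below 1 RPKM in both groups), did not pass the test.

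Axl and its relatives serve the engulfment of dying cells. Axl (gene ID 26362, on chromosome 7) encodes a TAM receptor tyrosine kinase that binds phosphatidylserine-coated cells through GAS6. It was at 92.14, 88.65 and 91.32 RPKM in wildtype and 75.29, 73.64 and 69.5 in DISC1-Δ3 libraries. Every DISC1-Δ3 library was below every wildtype library, by 19.7% on the means. Its log2 fold change was -0.40 ± 0.0453 (edgeR adjusted p = 1.518e-06), and it was called lower in all 15 alternatives. Of 12 other tested TAM and engulfment genes 8 were lower and 1 was higher (median -0.28). Mertk, the TAM receptor of resting microglia, fell from 39.9 ± 1.57 to 25.9 ± 2.37 RPKM (-0.74), and the ligands Gas6 (134 ± 2.37 to 118 ± 3.25, -0.27) and Pros1 (-0.31) fell with it. Havcr2 (-0.73), Rac2 (-0.45) and the scavenger receptor Scarb1 (-0.32) were also lower, Adgrb1 (0.22) was higher, and the third TAM receptor, Tyro3, was at 12.8 ± 0.0503 and 13.6 ± 0.813 RPKM and did not pass the test (0.02).

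Clec7a (gene ID 56644, on chromosome 6) encodes dectin-1, a C-type lectin of phagocytes that recognises beta-glucans. The wildtype libraries were at 5.16, 5.13 and 5.72 RPKM and the DISC1-Δ3 libraries at 4.52, 6.44 and 6.09. The DISC1-Δ3 libraries lay on both sides of the wildtype range and varied most of all 10 genes, with a coefficient of variation of 18.0%. Its log2 fold change was 0.01, with a 95% interval of -0.26 to 0.29 (edgeR adjusted p = 0.942). In the dectin-1 pathway, 1 of 6 genes was higher and 3 were lower (median -0.11): the adaptor Card9 (-0.59), the phospholipase Plcg2 (-0.57) and the kinase Syk (-0.17) fell, and the paracaspase Malt1 (0.42, adjusted p = 0.0309) was called higher. Malt1 was at 2.55, 2.36 and 2.69 RPKM in wildtype and 3.25, 2.71 and 4.44 in DISC1-Δ3 libraries, with DISC1-Δ3 replicate 3 the highest. Without that library its log2 fold change was 0.17 (edgeR adjusted p = 0.227), and its call was also lost with limma and without any 1 of the wildtype libraries (adjusted p of 0.0555 to 0.114). Syk lost its call with limma and when libraries were scaled by summed RPKM (adjusted p = 0.155).

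Cst7 (gene ID 13011, on chromosome 2) encodes cystatin F, an inhibitor of lysosomal cathepsins. It was at 7.42, 8.06 and 8.15 RPKM in wildtype and 5.98, 6.68 and 6.44 in DISC1-Δ3 libraries. The groups did not overlap, on 72 to 112 reads a library, the fewest of the 10 genes. The log2 fold change was -0.39 ± 0.143 (edgeR adjusted p = 0.0393). This call was lost in 7 of the 15 alternatives, with DESeq2 (adjusted p = 0.114), with the replicate number as a block (0.0526), with scaling by summed RPKM (0.0981) and without wildtype replicate 2 or 3 or DISC1-Δ3 replicate 1 or 3 (0.111, 0.111, 0.0944 and 0.0513). Of 7 tested cystatins and cathepsins, 6 were lower and none higher (median -0.41). They include Ctsc, the protease that cystatin F restrains (40.3 ± 1.62 to 30.7 ± 3.54 RPKM, -0.45), as well as Ctsz (-0.46), Ctsh (-0.44) and Lgmn (-0.41).

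**Figure D3:**
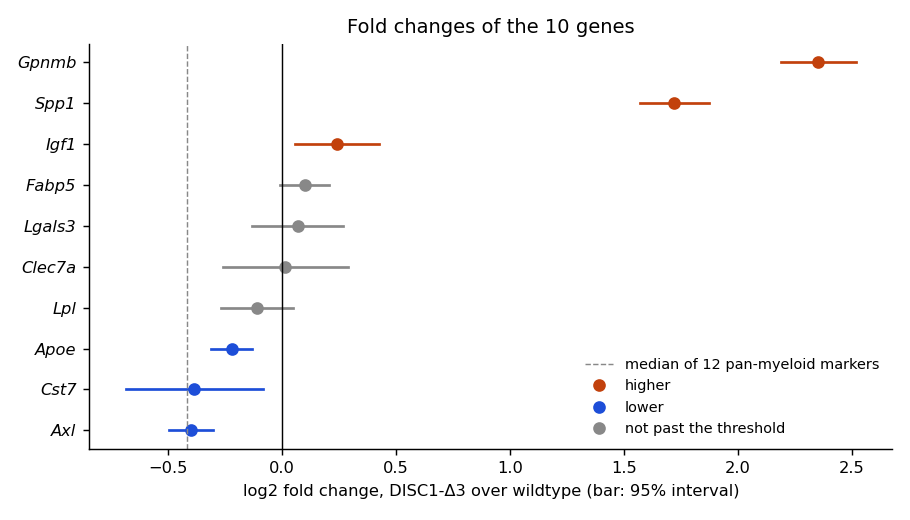
Log2 fold change of each of the 10 genes, DISC1-Δ3 over wildtype, from the edgeR fit, with 95% intervals. Gpnmb and Spp1 stand at 2.35 and 1.72, and the other 8 genes lie between -0.40 and 0.24.

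Ordered by level, the 10 genes spanned from Igf1 to Apoe in both groups, and the order changed mainly through Gpnmb, which was in position 9 in wildtype and in position 5 in DISC1-Δ3 libraries. In wildtype libraries the ranges of the neighbours Spp1 and Lgals3 overlapped, as did those of Cst7 and Lpl. In DISC1-Δ3 libraries only the neighbours Cst7 and Clec7a overlapped.

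Of 20 other genes of the white matter and disease-associated microglia state, 2 were higher and 9 lower, with a median of -0.10. Over all tested genes 39.9% were called. Itgax, the integrin CD11c that marks these microglia in neonatal white matter, rose from 2.29 ± 0.273 to 5.05 ± 0.131 RPKM (log2 fold change 1.08, edgeR adjusted p = 3.247e-07), and Lgals1 rose by a smaller margin (0.39). Cybb (-1.06), Cd52 (-0.72) and the chemokines Ccl4 (-0.55) and Ccl3 (-0.53) fell. Trem2, a lipid receptor of microglia, fell from 465 ± 16.1 to 363 ± 22.8 RPKM (-0.43). Of 16 proliferation genes 1 was called higher (Aurkb, 0.22) and 3 lower (Mki67, -0.34; Mcm3, -0.19; Mcm5, -0.16). Their calls were lost in 10, 9, 6 and 9 of the 15 alternatives, Mki67 was at -0.58 without DISC1-Δ3 replicate 3, and the list had between 0 and 4 calls over the alternatives, with 0 when wildtype replicate 1 or DISC1-Δ3 replicate 2 was left out. Its median of -0.02 turned to 0.07 when libraries were scaled by summed RPKM.

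**Figure D4:**
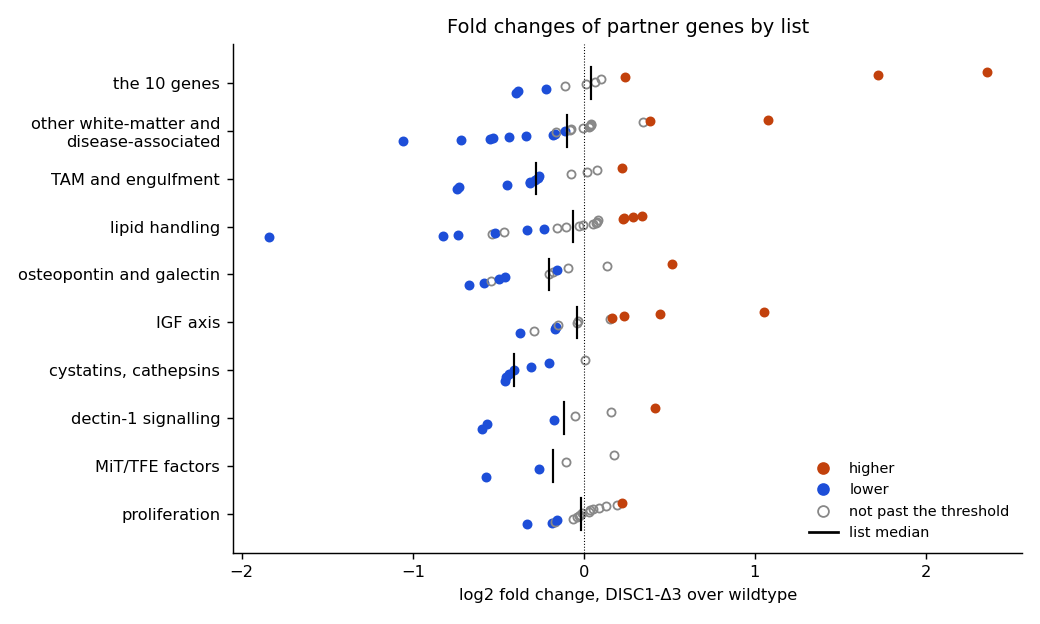
Log2 fold change, DISC1-Δ3 over wildtype, of the tested genes of each list: orange, called higher; blue, called lower; open grey, not past the threshold; black bar, list median. Gpnmb and Spp1 lie beyond every other gene on the higher side, and most called genes of the engulfment and cathepsin lists lie on the lower side.

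Set against the myeloid markers of the same library, all 10 genes were higher in DISC1-Δ3 libraries. The RPKM of each gene was divided by the summed RPKM of the 12 pan-myeloid markers. These ratios were 7.66 times the wildtype mean for Gpnmb, 4.91 for Spp1, 1.77 for Igf1, 1.60 for Fabp5, 1.39 to 1.56 for Lgals3, Clec7a and Lpl, 1.28 for Apoe, 1.14 for Cst7 and 1.13 for Axl, with no overlap between the groups for any of them. Because the denominator fell, 82.3% of all tested genes were higher without overlap on this scale, so the count of 10 says little about these genes. With the 12 homeostatic microglia markers as the denominator, 8 of the 10 did not overlap (76.1% of all tested genes) and Axl and Cst7 did. Axl and Cst7 were thus the closest of the 10 to the myeloid markers in their change, and Gpnmb and Spp1 the farthest.

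**Figure D5:**
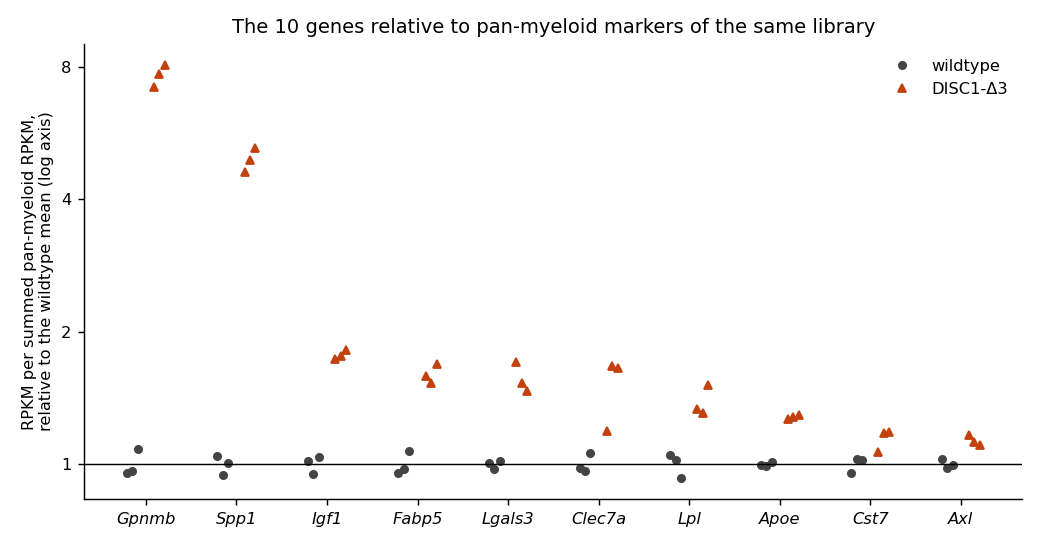
RPKM of each gene divided by the summed RPKM of 12 pan-myeloid markers in the same library, relative to the wildtype mean (log axis), for wildtype (grey circles) and DISC1-Δ3 libraries (orange triangles). Gpnmb and Spp1 lie at 7.66 and 4.91 on average in DISC1-Δ3 libraries, and the other 8 genes between 1.13 and 1.77.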

How the data were processed

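RNA was measured by RNA-seq in OPC preparations from 3 wildtype and 3 DISC1-Δ3 libraries, grouped by the genotype in the labels. The authors deposited 1 table. It gives, per library, an expected count of reads for each gene, which the authors obtained by assigning reads to genes, and its RPKM, which the authors derived from that count by transcript length and library size. The submitters' processing notes name Bowtie2 2.2.5 and the mm10 build; the counting tool and annotation are not given in the sources used here. The columns of group averages were not used.

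Expected counts were rounded to whole reads (90.2% of those above 0 were whole). Genes were tested where 3 or more libraries had an RPKM of 0.5 or above, with edgeR 4.0.16 (R 4.3.3) and a quasi-likelihood fit with TMM scaling and genotype as the only term, two-sided, with Benjamini-Hochberg adjustment over all tested genes and a threshold of 0.05. Log2 fold changes come from that fit, and levels are RPKM. The SE of an edgeR log2 fold change was derived as its absolute value over the square root of its F statistic. The 95% intervals were built from that SE with the t distribution. The exact permutation test of 1 gene over 3 against 3 libraries cannot give a p below 0.1, so it was not used for calls. DESeq2 1.42.0, limma 3.58.1 on log2(RPKM + 1) and log2(RPKM + 0.1), other scalings and filters, a replicate block and each library left out in turn were the 15 alternatives. On simulated data edgeR recovered 98% of 200 changed genes among 13792. That share holds only for the changes that were simulated. It does not say how often a smaller change, or a change in a gene with fewer reads, would be found. The libraries held 13716619 to 16417219 reads. Reads were not deduplicated by molecular barcodes as far as the sources say, so precision from read numbers covers counting error only.

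The 10 genes, the lists and the naming rule were chosen with earlier results of these data known. Besides the 10 genes, the largest called members of each list (up to 4 in each direction) and the direct receptors, ligands or substrates of the 10 genes were named, but for cell type lists only the counts and a few markers. For 1 named gene, values are left out. Plin2, on the table under a symbol that a second gene also carries, was taken by gene ID. Coordinates are those of mm10 (GRCm38), and promoter windows and their sequences are from RefSeq.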

Additional observations from a re-analysis of the deposited data

How the results depend on the processing

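Over the 15 alternatives the calls and directions of Gpnmb, Spp1, Axl and Apoe held in each, and Lpl, Lgals3 and Clec7a were called in none. Cst7 and Igf1 kept their direction in each and their call in 8, and Fabp5, not called in the main analysis, was called in 4. The log2 fold change of Clec7a changed sign with edgeR's filterByExpr (-0.0026) and ranged from -0.109 to 0.13 when 1 library was left out, with -0.0119 and -0.0129 when wildtype replicate 1 or 2 was omitted and -0.0301 when DISC1-Δ3 replicate 3 was. That of Lgals3 was -0.0198 without DISC1-Δ3 replicate 1. Over all genes, 2691 were called lower in the main analysis, 1748 with scaling by summed RPKM, and 1774 and 1763 with limma at pseudocounts of 1 and 0.1, where 69.2% of calls were higher. Neither scaling by summed RPKM nor limma on RPKM uses the TMM factors, which were 0.970 to 0.973 in wildtype and 1.021 to 1.041 in DISC1-Δ3 libraries. What makes these factors differ between the groups was not tested. All calls together numbered 5498, 4600 with DESeq2, and 4342 to 6232 with 1 library left out.

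The replicate numbers did not pair the libraries: the deviations of same-numbered libraries from their group means correlated at 0.117, 0.0305 and -0.034. With the replicate number as a block 5429 genes were called, and of the 10 genes only Cst7 lost its call (adjusted p = 0.0526).

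Of 285 list counts over the alternatives 270 stayed within the margin of 1.5 times. Cst7, Igf1, Clec7a and Lgals3 rest on at most 339 reads a library, which limits the differences that can be seen for them.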
